A study of Nomascus leucogenys and Hoolock leuconedys and Nomascus gabriellae with 23 samples.

Results

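LAVA is a composite retrotransposon known from gibbons. It joins a stretch of LINE sequence to an AluSz piece, tandem repeats that vary in number, and a further piece like an Alu. Like other composite elements of its class it has no proteins of its own and is copied into new genomic places by the machinery of LINE elements. Copying starts at the 3′ end, so many copies lack part of the 5′ end, and a copy with nearly the whole element is the less truncated form. An element inside an intron can lie in the same direction as the gene (sense) or in the opposite direction (antisense), which sets which strand of the element is copied into the gene's transcript.

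The sites described here are the near full-length insertions in introns. They were chosen from the deposited table of LAVA sites by 3 criteria: an intronic location, coordinates that span a single base, and an element of at least 1800 bases. These criteria took 501 of the 5490 listed sites, and they made up 22.8% of the 2202 intronic single-base sites. Carriers, orientation and gene were not criteria of the choice, and the intronic location is as deposited. Sites are listed in a pair of forms: at single-base sites the coordinates mark a point, and at interval sites they span the element itself. The comparison classes were 909 truncated intronic single-base sites of 540 to under 1800 bases, 792 short ones under 540 bases, 543 intronic interval sites, and 454 near full-length single-base sites between genes. The form of listing went with carriers: 445 of the 543 intronic interval sites were in all 23 animals, against 0 of the near full-length sites. Taking single-base sites was therefore not independent of carriers.

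Blood DNA of 23 gibbons was sequenced as whole-genome libraries. The 13 Nomascus animals were 11 N. leucogenys and 2 N. gabriellae. There were 3 Hoolock leuconedys and 2 Symphalangus syndactylus. The 5 Hylobates were 2 H. moloch, 1 H. muelleri, 1 H. lar and 1 H. pileatus. Each site has a call of carried or not carried in every animal, with no read numbers, so the sequencing depth behind a call is unknown. Every listed site was carried by at least 2 animals, so an insertion found in 1 animal is not in the table. Calls were missing for 71 of 11523 pairs of near full-length site and animal (0.616%) and were taken as not carried. Nothing used here tells the age, sex or relatedness of the animals, which the tests take as independent. No sequences of the elements or of their flanks were used here.

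The near full-length sites were close to 1 length. Their lengths ran from 1800 to 1839 bases, with a median of 1837 and quartiles of 1827 and 1837, and 168 of them (33.5%) were exactly 1837 bases long. A further view is the place where the element starts on the LAVA consensus. The start was base 0 in 50 sites, base 1 in 201 and base 2 in 38, so 289 of 501 (57.7%) began within the first bases of the consensus, and the latest start was base 38. All of them ended at base 1838 or 1839 of the consensus, 236 at the lower and 265 at the higher. Truncated and short sites also all ended at one of these bases, with 45.2% of truncated and 23.5% of short sites at the higher, against 52.9% of near full-length sites.

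The length limit of 1800 crossed the lower shoulder of the peak of near full-length sites. There were 22 sites within 10 bases above the limit and 17 within 10 bases below it, and 42 in all from 1700 bases up to the limit. The shortest sites kept were in LINC01498, ZRANB3 and LINC01088, each with 1800 bases. The longest sites left out were in GOLGA3, DEPTOR and TRIM24, at most 3 bases short of the limit. The most frequent length of truncated sites was 1626 bases, shared by 161 of them. Interval sites were not held to this ceiling: 114 intronic interval sites were longer than 1839 bases, up to 5113, while 5 fell between 1800 and 1839.

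**Figure D1:**
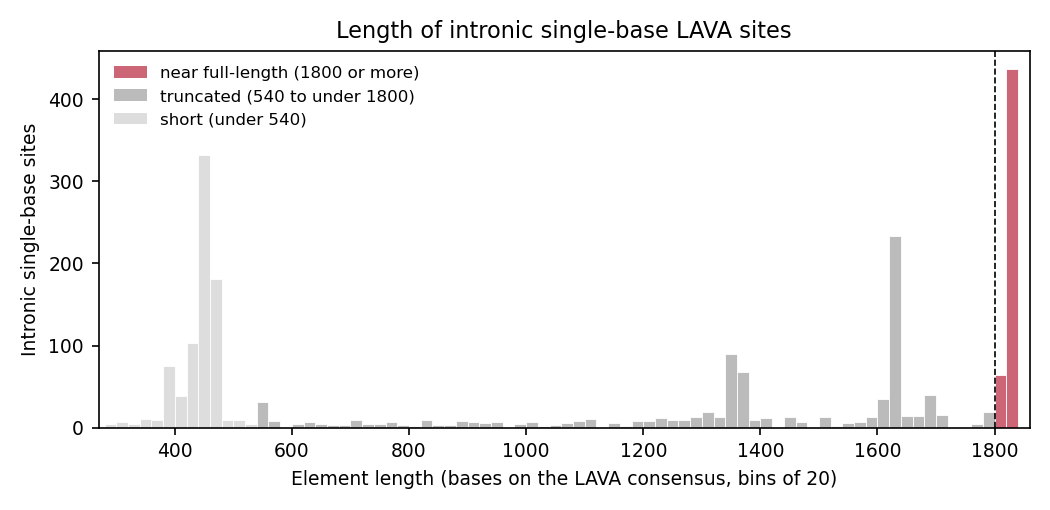
Number of intronic single-base LAVA sites (y axis) by element length in bases on the LAVA consensus (x axis, bins of 20), with the limit of 1800 bases as a dashed line. The 501 near full-length sites form a narrow peak at the right end, whose lower shoulder runs on below the limit, with 17 truncated sites within 10 bases of it. The most frequent length of truncated sites was 1626 bases.

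The first comparison asked how many of these insertions each genus carried. Hoolock gibbons carried the most and Nomascus gibbons the fewest, and no animal of a genus fell within the range of another genus. The 13 Nomascus animals carried 11 to 36 near full-length intronic sites, with a median of 19. Within that genus the 2 N. gabriellae, with 36 and 35, lay above all 11 N. leucogenys, which carried 11 to 26. The lowest count of the series, 11, was in N. leucogenys replicate 1.

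The 3 Hoolock animals carried 219, 241 and 250 such sites. The 2 Symphalangus animals carried 141 and 144. Among Hylobates, the 2 H. moloch carried 105 and 92, H. muelleri 100, H. lar 83 and H. pileatus 74.

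As means, Nomascus carried 20.7 ± 7.41 sites (SD, n = 13), Hoolock 237 ± 15.9 (n = 3), Symphalangus 142.5 ± 2.12 (n = 2) and Hylobates 90.8 ± 12.6 (n = 5). Means were compared with exact two-sided permutation tests over animals, adjusted over the 6 pairs of genera. These tests cover the single-base form alone, and the choice of that form was tied to genus. The intronic interval sites it left out numbered 543, and each Nomascus animal carried 539 to 543 of them. Nomascus was lower than Hylobates (difference -70.1 sites, exact adjusted p = 0.0007), than Hoolock (difference -216, exact adjusted p = 0.00536) and than Symphalangus (difference -122, exact adjusted p = 0.019). Hoolock was higher than Hylobates by 146 sites (exact adjusted p = 0.0268). Symphalangus exceeded Hylobates by 51.7 sites without passing (exact adjusted p = 0.0571, with an unadjusted p of 0.0476 that is the smallest 2 against 5 animals allow). Hoolock exceeded Symphalangus by 94.2 sites, and 3 against 2 animals cannot give an exact p under 0.1.

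Genera also differed in intronic single-base sites of all lengths together, which numbered 180 to 338 per animal in Nomascus, 840 to 957 in Hoolock, 680 and 686 in Symphalangus and 511 to 741 in Hylobates. The number of near full-length sites was therefore set against the animal's own total. The order of the genera was the same. Near full-length sites made up 8.05% ± 1.58 of these in Nomascus (SD, n = 13, range 5.98 to 10.7%) and 26.2% ± 0.258 in Hoolock (n = 3). They made up 20.9% ± 0.440 in Symphalangus (n = 2) and 14.6% ± 0.973 in Hylobates (n = 5, range 13.7 to 16.2%). The genera again did not overlap.

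Nomascus was lower than Hylobates (difference -6.56 percentage points, exact permutation adjusted p = 0.0007). It was lower than Hoolock (difference -18.2 points, exact permutation adjusted p = 0.00536) and than Symphalangus (difference -12.8 points, exact permutation adjusted p = 0.019). Hoolock exceeded Hylobates by 11.6 points (exact permutation adjusted p = 0.0268). The excess of Symphalangus over Hylobates was 6.26 points (exact permutation adjusted p = 0.0571) and that of Hoolock over Symphalangus 5.38 points (exact permutation p = 0.1, the smallest possible).

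Intronic interval sites ran the other way: of 543, Nomascus animals carried 539 to 543, Hoolock 473 to 480, Symphalangus 479 and 488, and Hylobates 458 to 489. Whether a site is listed in 1 form or the other thus moved with genus, and its part in the counts above was not tested. Genus and form of listing cannot be told apart in the comparisons above.

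Tests that rest on 2 or 3 animals depended on each of them. Without either Symphalangus animal, Nomascus against Symphalangus no longer passed (differences of -123 and -120 sites, exact permutation adjusted p = 0.107). Without any 1 of the 3 Hoolock animals, Hoolock against Hylobates no longer passed (differences of 139 to 155 sites, exact permutation adjusted p = 0.0571).

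**Figure D2:**
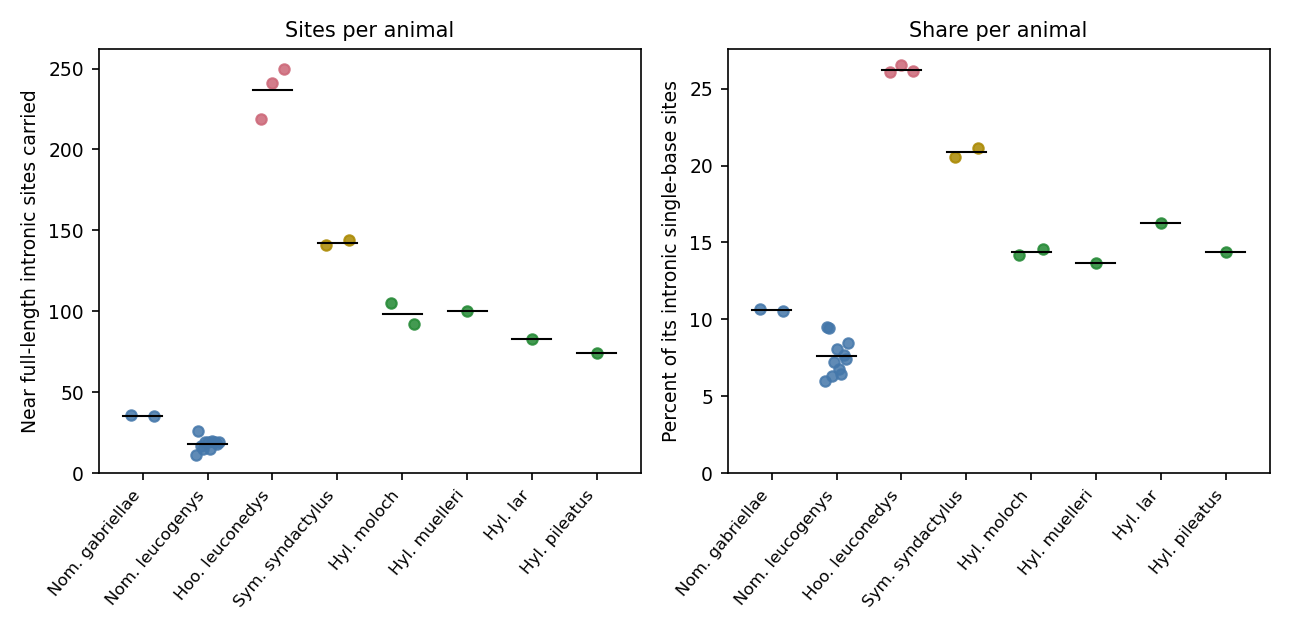
Near full-length intronic sites carried by each animal (left, number) and the same as a percent of the animal's intronic single-base sites (right), by species; each point is 1 animal and each line a species mean. Nomascus animals (11 to 36 sites) lie below Hoolock (219 to 250), Symphalangus (141 and 144) and Hylobates (74 to 105) in both panels.

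The second question was which genera share an insertion. Most near full-length sites were found in a single genus: 437 of 501 (87.2%, exact 95% interval 84.0 to 90.02%) had all their carriers in 1 genus. Hoolock alone held 218 of the 501 (43.5%), Symphalangus alone 107, Hylobates alone 83 and Nomascus alone 29. Intervals of shares cover counting error only. The counts depend on the number of animals sampled and on the minimum of 2 carriers, which for Symphalangus means both animals.

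Within a genus, the share of sites fixed among the sampled animals differed. Of the 218 sites of Hoolock alone, 179 were in all 3 animals and 39 in 2 of them. All 107 sites of Symphalangus alone were in both animals, as the minimum of 2 carriers requires. Of the 83 sites of Hylobates alone, 36 were in all 5 animals, and 13, 16 and 18 were in 4, 3 and 2 animals. None of the 29 sites of Nomascus alone was in all 13 animals. The most widely carried had 11 carriers and the median was 4. The same was true of the 55 truncated and 81 short intronic sites of Nomascus alone, of which 0 were in all 13. Of the 7 intronic interval sites of Nomascus alone, 6 were in all 13. The choice of the single-base form and the genus cannot be told apart here.

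Of the Nomascus sites, 12 were in N. leucogenys alone, 12 in both species and 5 in N. gabriellae alone. Among the Hylobates sites that were not in all 5 animals, the most frequent pattern was presence in both H. moloch and H. muelleri, at 10 sites. A further 8 were in these 3 animals and in H. lar, and 7 were in the 2 H. moloch alone. Any 2 Nomascus animals had in common a mean of 28.8% of the near full-length sites that either carried (range 15.4 to 77.5%). The mean was 81.8% between 2 Hoolock animals, 87.5% between the 2 Symphalangus animals, and 60.4% between 2 Hylobates animals (range 52.6 to 77.5%). These shares leave out the interval sites, of which each Nomascus animal carried 539 to 543.

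The remaining 64 sites were shared between genera: 33 by 2 genera, 18 by 3 and 13 by all 4. The most frequent pair was Hoolock with Hylobates (11 sites), and 10 sites were in Hoolock, Symphalangus and Hylobates without Nomascus. Sites with any Nomascus carrier numbered 59, against 264 with a Hoolock carrier, 152 with a Symphalangus carrier and 134 with a Hylobates carrier, and 442 of 501 (88.2%) were in no Nomascus animal. Carriers were few throughout: 385 sites (76.8%) had 2 or 3 carriers, 16 had 10 or more and none was in all 23 animals.

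**Figure D3:**
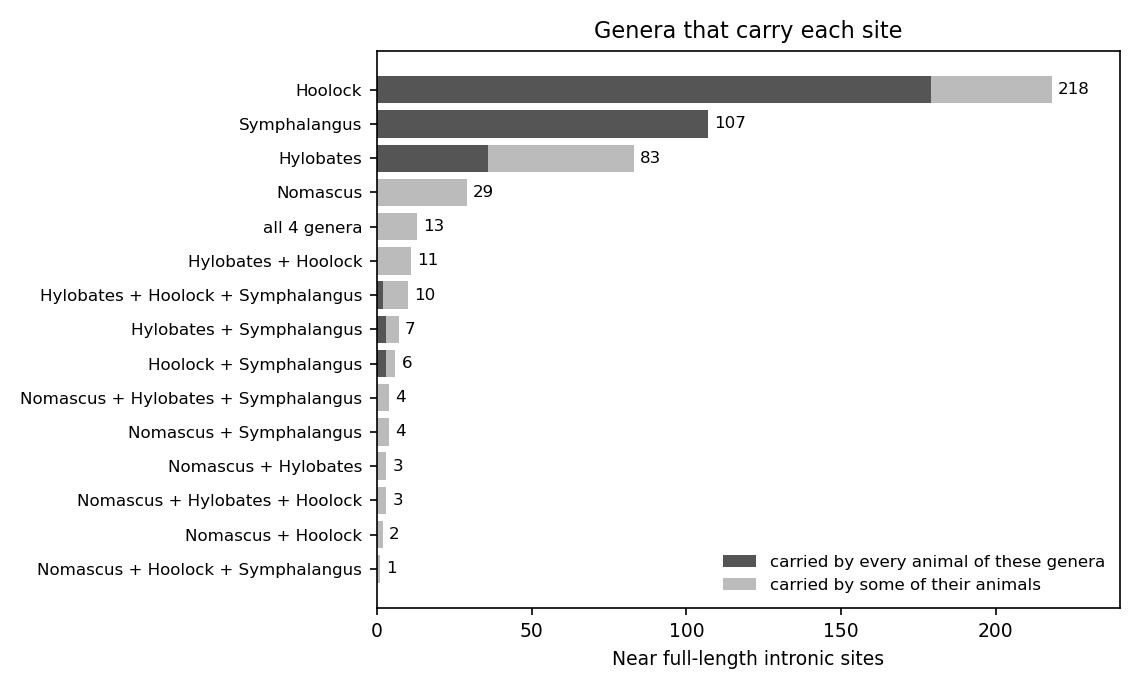
Number of near full-length intronic sites (x axis) by the set of genera that carry them (y axis); dark bars are sites carried by every animal of those genera, light bars sites carried by some. Sites of Hoolock alone (218, of which 179 are in all 3 animals), Symphalangus alone (107), Hylobates alone (83) and Nomascus alone (29) are the 4 longest bars.

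Near full-length sites were more often confined to 1 genus than shorter intronic sites. The share was 87.2% among near full-length sites and 67.2% among truncated ones, a difference of 20.01 percentage points (Fisher's exact test, adjusted p = 2.74e-17 over 3 comparisons). Against short sites, of which 47.7% were in 1 genus, the difference was 39.5 points (Fisher's exact test, adjusted p = 5.52e-50). Near full-length sites between genes had a share of 86.3%, within 0.882 points of the intronic ones (Fisher's exact test, adjusted p = 0.703). Mean carriers per site were 3.43 for near full-length, 4.63 for truncated, 5.76 for short and 21.8 for interval sites in introns. Sites are counted here as units, although the sites of 1 genus share their carriers.

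Read the other way, near full-length elements were a larger part of the intronic single-base sites private to Hoolock and Symphalangus than of those private to the other genera. They were 218 of 561 sites of Hoolock alone (38.9%, exact 95% interval 34.8 to 43.0%) and 107 of 295 of Symphalangus alone (36.3%, 30.8 to 42.0%). They were 83 of 405 sites of Hylobates alone (20.5%, 16.7 to 24.8%), 29 of 165 of Nomascus alone (17.6%, 12.1 to 24.3%) and 64 of the 776 shared between genera (8.25%, 6.41 to 10.4%). These shares were not tested against each other.

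The third comparison tested each site for a difference in carriers between 1 genus and all other animals, by Fisher's exact test with adjustment across the 5490 listed sites. The 4 comparisons use the same animals, and their counts are not independent. Hoolock carried 185 of the 501 near full-length sites more often than the other animals (36.9%, against 18.7% of all listed sites). Of these, 179 were in all 3 Hoolock animals and in no other animal. Symphalangus carried 107 more often (21.4%, against 9.58% of all sites), all of them found in both of its animals and nowhere else. These are the 107 sites of Symphalangus alone counted above. The minimum of 2 carriers puts each of them in both animals and gives all the same p, so this count restates the earlier one. Hylobates carried 73 more often (14.6%, against 11.5% of all sites), of which 65 were in no other genus and 36 in all 5 animals.

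Nomascus carried 3 sites more often (0.599%, against 3.01% of all sites) and 15 less often (2.99%, against 4.79%). All sites include the interval form, so the intronic single-base sites are the closer background. Of these 2202 sites, which include the near full-length ones, 10 were called more frequent in Nomascus and 140 less frequent. Those called more frequent in Hoolock numbered 481, in Symphalangus 295 and in Hylobates 306. With the length limit at 1700 the sites less frequent in Nomascus were 23 of 543, and with a stricter limit, which left 350 sites, those more frequent in Hylobates were 46. No near full-length site was called less frequent in Hoolock (0.182% of all sites were), in Symphalangus (0.0364%) or in Hylobates (0.856%). At an unadjusted exact p under 0.05, the less frequent sites numbered 0 in Hoolock, 0 in Symphalangus and 2 in Hylobates. Such calls need a site carried by most other animals, for Symphalangus by all 21. Of the near full-length sites, 385 had 2 or 3 carriers and 16 had 10 or more. The only one with at least 20, in MROH7, was in both Symphalangus. Carrier numbers thus left little or no room for these calls, and the counts are not read against the shares of all sites.

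The Symphalangus calls sit at the limit of the test: all 107 share an exact p of 0.00395, the smallest that 2 against 21 animals allow, and an adjusted p of 0.0411. Without either Symphalangus animal none of them passed. The Nomascus count of less frequent sites was 14 to 52 when 1 animal was left out, and it was 51 or 52 without any 1 Hoolock or Symphalangus animal.

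The 3 near full-length sites more frequent in Nomascus lay in PTPN11, LRRC63 and SPPL2A, and none had a carrier in another genus. The site in PTPN11, which encodes the tyrosine phosphatase SHP2, is on chromosome 10 at position 86319829. It was carried by 9 of 11 N. leucogenys and both N. gabriellae, in sense orientation. The LRRC63 site (chromosome 5, position 73953493, sense) was carried by 7 N. leucogenys and both N. gabriellae. The site in SPPL2A, an intramembrane protease, was antisense (chromosome 6, position 49761388) and was carried by 7 N. leucogenys and 1 N. gabriellae. These 3 genes, and those of the next paragraph, are named because their sites passed the test.

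All 15 sites less frequent in Nomascus were in none of its 13 animals, and 9 of them were in the 3 other genera. Those in ZNF236, a zinc finger gene (chromosome 4, position 3239274), and in CECR7 (chromosome 7b, position 48300631) were carried by all 10 Hoolock, Symphalangus and Hylobates animals, in sense orientation. The site in MUSK, the receptor kinase of the neuromuscular junction, was in all 3 Hoolock, both Symphalangus and 3 of 5 Hylobates. The site in SCML2, a Polycomb-type gene on the X chromosome, was in all 3 Hoolock, 1 Symphalangus and all 5 Hylobates. The other 11 were in AC241377.2, AL158847.1, AUTS2, CCM2, DGKG, DHX29, FAF2, OR13A1, PRRC2B, RAPGEF6 and RSBN1. Of the 15, 4 were sense.

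Sites in every animal of 2 or more genera and in no other animal were rare. Apart from those in ZNF236 and CECR7, 3 were in every Symphalangus and Hylobates animal and in no other: AC241377.2, AL158847.1 and the olfactory receptor gene OR13A1. Another 3 were in every Hoolock and Symphalangus animal and in no other. These included sites in MORC1, known from mice as a silencer of transposons in male germ cells, and in GPAT4, an enzyme of glycerolipid synthesis. These 5 genes are named for their pattern, after the values were seen. Not counted here are sites in every animal of 2 or more genera that also had carriers in a further genus. Such sites lay in MROH7, SCML2, MUSK, DMRTC2, FAF2 and OPA1, among others not listed here.

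Only MROH7 held a near full-length site with at least 20 carriers. That site (chromosome 5, position 48966585, 1836 bases, sense) was carried by all 13 Nomascus, 2 of 3 Hoolock, both Symphalangus and all 5 Hylobates. It was also the only near full-length site in all 11 N. leucogenys. The next most widely carried sites, chosen after their values were seen, were in AC092590.1 (19 carriers), AL445472.1 (16), DMRTC2 (15), ABHD18 (13) and RBFOX1 (13), the last a regulator of splicing in brain and muscle. Each of these 5 had carriers in Nomascus, Hoolock and Hylobates.

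The fourth comparison concerned orientation to the gene, which the choice of sites did not use. Near full-length insertions were more often antisense: 197 were sense and 304 antisense, a sense share of 39.3% (exact 95% interval 35.0 to 43.8%, two-sided exact binomial test against an even split, p = 2.01e-06). The share was 38.7% in truncated sites (difference of 0.597 percentage points, Fisher's exact test, adjusted p = 0.864). It was 46.2% in short sites (difference of -6.89 points, Fisher's exact test, adjusted p = 0.0235) and 25.6% in interval sites (difference of 13.7 points, Fisher's exact test, adjusted p = 7.19e-06). Between genes, where there is no gene direction, 49.8% of near full-length sites were on the plus strand (exact 95% interval 45.1 to 54.5%).

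The antisense excess lay in the sites that ended at base 1839 of the consensus. Of the 265 near full-length sites with that end, 68 were sense (25.7%, exact 95% interval 20.5 to 31.4%). Of the 236 that ended 1 base earlier, at 1838, 129 were sense (54.7%, 48.1 to 61.1%, exact binomial p = 0.171). The sense share was also lower at 1839 than at 1838 among the sites of each genus, with no test made within a genus. For sites of Nomascus alone, 2 of 14 ending at 1839 and 8 of 15 ending at 1838 were sense (14.3% and 53.3%, with overlapping intervals of 1.78 to 42.8% and 26.6 to 78.7%). For Hoolock alone they were 28 of 116 and 55 of 102 (24.1% and 53.9%), and for Symphalangus alone 13 of 56 and 27 of 51 (23.2% and 52.9%). For Hylobates alone they were 18 of 57 and 16 of 26 (31.6% and 61.5%, with overlapping intervals of 19.9 to 45.2% and 40.6 to 79.8%).

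Sites shared between genera had 31.8% sense at the end of 1839 and 54.8% at 1838. The split was narrower in truncated sites (30.2% and 45.8%) and in short sites (41.9% and 47.5%). In single-base sites of the promoter class it was 55.2% and 54.9%, and near full-length sites between genes were on the plus strand in 46.9% and 52.6%. With single-base sites of 1 end alone the class comparisons changed. The sense share of near full-length sites ending at 1839 differed by 0.0619 points from that of all 543 interval sites, which were not restricted by their end (Fisher's exact test, adjusted p = 1). Among ends at 1838 it was higher than in truncated sites by 8.88 points (Fisher's exact test, adjusted p = 0.0404), and the difference from short sites was 7.14 points (Fisher's exact test, adjusted p = 0.0659). No source used here says what sets the last consensus base in the deposited table, and its part in the orientation result was not tested. This split was found after the values were seen, and the sense share of the whole set is that of a mixture of both ends.

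The end also moved with other properties of the near full-length sites. Those ending at 1839 were in 1 genus in 91.7% of cases, against 82.2% of those ending at 1838. They started at consensus bases 0 to 2 in 50.9% of cases, against 65.3%. Names listed as protein-coding made up 77.7% of the sites ending at 1839, against 73.7% at 1838.

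Sense shares by genus had overlapping intervals. The share was 34.5% for sites of Nomascus alone, 38.1% for Hoolock alone, 37.4% for Symphalangus alone and 41.0% for Hylobates alone. It was 38.2% for all sites of 1 genus and 46.9% for sites of several genera (Fisher's exact test, p = 0.218, difference of -8.66 points). Among the shared sites, 17 of the 30 that Nomascus carried were sense (56.7%), against 13 of the 34 that it did not (38.2%). On the X chromosome 1 of 11 was sense. These last shares were not tested.

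**Figure D4:**
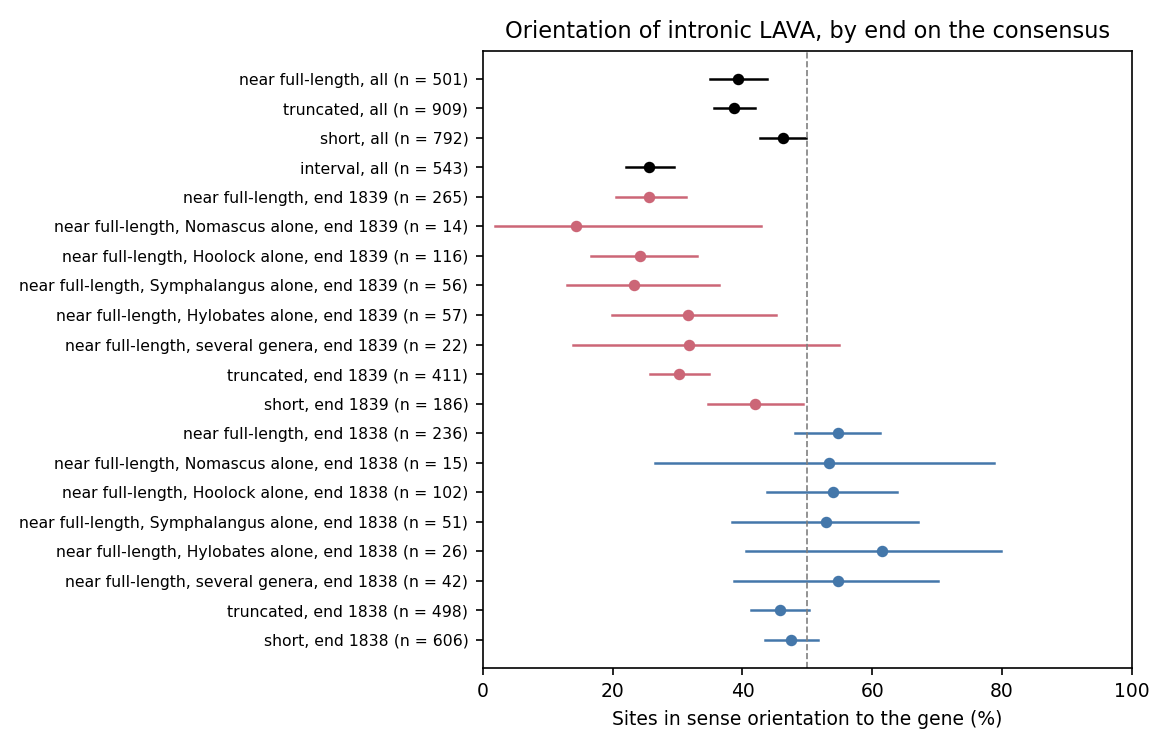
Percent of sites in sense orientation to the gene (x axis) with exact 95% intervals, for all sites of each intronic class (black) and for single-base sites ending at consensus base 1839 (red) or 1838 (blue); the dashed line marks 50%. Near full-length sites ending at 1839 (25.7% sense) lie below those ending at 1838 (54.7% sense), and the same order, not tested within a genus, is seen for the sites of each genus.

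The genes hit were mostly different ones. The 501 sites lay in introns of 475 named genes: 451 held 1, 22 held 2, and EXOC6B and WWOX held 3 each. Of the 475 names, 358 were found in the RefSeq gene table, all as protein-coding, and these held 380 sites. Other LAVA sites in the same genes were the exception, since 354 genes held neither an interval site nor another single-base site in an intron. Of all 1900 gene names with an intronic single-base site, 475 (25%) held a near full-length one.

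The 24 genes with several near full-length sites held 50 of them. In 11 of these genes the sites belonged to genera that did not overlap, and in 11 all sites had the same orientation, antisense in 9 and sense in 2. Of all near full-length sites 87.2% were in 1 genus and 39.3% were sense. Neither count of genes was tested against these shares, and neither is read as a trait of these genes. In EXOC6B, which encodes a subunit of the exocyst, a complex that tethers secretory vesicles, the sites were on chromosome 14. A sense site at position 40897990 and an antisense site at position 41236230 were each in all 3 Hoolock animals, and an antisense site between them, at position 41149709, was in 2 Hylobates.

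In WWOX, an oxidoreductase gene at a common fragile site of the human genome, all 3 sites were antisense on chromosome 2. The site at position 150958662 was in all 3 Hoolock animals, the site at position 151174213 in 3 Hoolock and 1 Hylobates, and the site at position 151210967 in 2 Hoolock.

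Genes with 2 sites showed the same variety. ARFIP1, a partner of ARF GTPases, had 2 antisense sites on chromosome 7b (positions 76681895 and 76718803), both in all 3 Hoolock animals. BIRC6, an inhibitor of apoptosis with ubiquitin ligase activity, had 2 antisense sites on chromosome 19. The site at position 57851440 was in all 3 Hoolock and no other animal, and the site at 57884911, 33471 bases away, was in all 5 Hylobates and no other animal. ATAD2B, a bromodomain gene, had 2 sense sites 6807 bases apart on chromosome 19, at position 23804985 in both Symphalangus and at position 23811792 in all 3 Hoolock.

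AVEN, an inhibitor of apoptosis, held a sense site in all 3 Hoolock (chromosome 6, position 66671636) and, 5495 bases away, an antisense site in 3 Hylobates (position 66677131). AUTS2, a gene of neuronal development, held 2 antisense sites on chromosome 17. The one at position 43804674 was in all 3 Hoolock, and the one at position 44157667 was in 1 Hoolock, both Symphalangus and 4 Hylobates. The other names taken by number were AC011477.3, AC012560.1 and AL359317.2, and the 2 near full-length sites of AC011477.3 lay 1260 bases apart.

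Sites that marked a genus were those that every one of its animals and no other animal carried. They were named with genes listed as protein-coding first, then by length and then by position. For Hoolock these were in NUP210L, FAM102B, CMTR1, VPS41, CPVL and NBAS, each 1839 bases long and antisense. Naming by length takes sites that start at consensus base 0 and end at base 1839. Of all near full-length sites ending at 1839, whatever their start, 25.7% were sense. The share for this start and end together is not given here, so the orientation of the named sites is not read as a trait of a genus. Among all sites of Hoolock alone in all 3 animals 38.0% were sense, and the 1839-base site of AL365295.1 was among these. CMTR1 encodes an enzyme of messenger RNA capping, VPS41 a subunit of the lysosomal HOPS complex and NBAS a factor in Golgi-to-ER transport. NUP210L, a nucleoporin gene, held a second near full-length site, a sense one in 2 of the 3 Hoolock.

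For Symphalangus the sites were in RIT1, MRE11, PITPNA, CCDC198, FBLN2 and PPP1R13B, also 1839 bases long and antisense. Later in the order of position, ARPIN and MIB1 held sense sites of 1839 bases in both Symphalangus and no other animal. RIT1 encodes a Ras-related GTPase, PITPNA a phosphatidylinositol transfer protein and FBLN2 a protein of the extracellular matrix. For Hylobates they were in CCDC114, PPP5D1, CCS, NOL11 and PLLP, of 1837 or 1838 bases, with 2 sense and 3 antisense. At the PPP5D1 site 3 calls were missing and were taken as not carried. A longer site of 1839 bases in AC010422.4, a name not listed as protein-coding, was also in all 5 Hylobates and no other animal. CCS encodes the copper chaperone of superoxide dismutase, CCDC114 a component that docks dynein arms in cilia and NOL11 a factor of ribosome biogenesis. No near full-length site met this condition for Nomascus, while 6 of the 7 intronic interval sites of Nomascus alone did.

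The near full-length sites were also read against 9 gene lists written from general knowledge, with 917 genes in all. Of these genes, 192 held an intronic single-base site and 50 held a near full-length one (26.0% of the 192, against 25% of all 1900 names). Their 54 sites were 40.7% sense, and 85.2% of them were in 1 genus. Of these 54 sites, 22 were of Hoolock alone, 12 of Symphalangus alone, 11 of Hylobates alone and 1 of Nomascus alone, and 4 had a Nomascus carrier. Enrichment of a list was not tested.

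Of 80 genes of chromosome segregation and cohesin, 4 held a near full-length site, each in 1 genus. NUF2, of the kinetochore complex that binds microtubules, held an antisense site in 2 Hoolock. NCAPH, of condensin I, held a sense site in both Symphalangus. In Hylobates, PMF1, of the MIS12 kinetochore complex, held an antisense site in all 5 animals, and NCAPD3, of condensin II, a sense site in 2.

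Of 106 genes of microtubules, motors and cilia, 7 held 8 sites, of which 3 were sense. IFT81 and IFT88, both of intraflagellar transport, held antisense sites in all 3 Hoolock, and the IFT88 site was also in 1 Hylobates. CEP112, a centrosomal gene, held antisense sites in 3 and in 2 Hoolock. Those in CFAP47, in the kinesin gene KIF13A and in SPAST, which encodes the microtubule-severing protein spastin, were sense and in both Symphalangus.

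DNA repair and replication had 4 of 111 genes with 5 sites. MRE11, the nuclease of a complex that senses double-strand breaks, held a sense site in all 5 Hylobates (chromosome 15, position 41296916). Its second site, antisense at position 41325760, was in both Symphalangus, 28844 bases away. ATRIP, the partner of the ATR kinase, held a sense site in both Symphalangus. POLN, a DNA polymerase gene, held an antisense site in all 3 Hoolock.

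Of 109 cell adhesion and synapse genes, 35 held an intronic single-base site and 4 a near full-length one. DCC, a netrin receptor, had a sense site in all 3 Hoolock, and the synaptic genes ERC2 (antisense) and LRRTM4 (sense) had sites in both Symphalangus. The site in CSMD1 was antisense in 2 N. leucogenys and was the single site of the lists found in Nomascus alone. Its calls were missing in 4 animals and were taken as not carried, so its carriers are uncertain. Of 106 genes of ion channels and neurotransmitter receptors, 4 held a site. The potassium channel gene KCND3 had a sense site in all 3 Hoolock, GABBR2, a GABA receptor gene, an antisense site in 2 Hoolock, and ANO2, a chloride channel gene, a sense site in 3 Hylobates. The sense site in GRIK2, a kainate receptor gene, was in 5 N. leucogenys, 2 Hoolock and 1 Hylobates.

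Chromatin and transcriptional regulators had 8 of 135 genes with 9 sites, 2 of them sense. SMARCC1, of the SWI/SNF remodelling complex, held an antisense site in all 3 Hoolock, and PHF14 one in 2 Hoolock. BAZ1B, a remodeller subunit, held a sense site in all 5 Hylobates. The sense site in BPTF, of the NURF complex, was in 4 Nomascus, 2 of each species, and 1 Hoolock. The antisense site in BRWD3, on the X chromosome, was in 3 Nomascus and 1 Hylobates. SMYD3 and TET1 held the other 2 sites of this list outside AUTS2.

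Of 141 genes of ubiquitin ligases and proteases, 9 held 10 sites, 9 of them in 1 genus. HERC4 held an antisense site in all 3 Hoolock and HERC3, a related ligase gene, a sense site in all 5 Hylobates. MIB1, a ligase of Notch ligands, held a sense site in both Symphalangus. CBL, a ligase of receptor tyrosine kinases, held a sense site in 4 Hylobates, and FBXO11 a sense site in 1 Hoolock and 4 Hylobates. RNF13, USP32 and USP45 also held 1 each. In the list of germline silencing of transposons, 1 of 34 genes held a site, the MORC1 site described above.

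Solute carriers had 9 of 96 genes with 1 site each, all in 1 genus and 3 of them sense. SLC1A2, the main glial glutamate transporter, held an antisense site in all 3 Hoolock, and SLC17A8, a vesicular glutamate transporter, and SLC4A10, a bicarbonate transporter, sense sites in all 3 Hoolock. SLC16A10 and SLC22A23 held antisense sites in both Symphalangus. SLC39A11, of the zinc transporter family, held an antisense site in 3 Hylobates. SLC4A7, SLC9A7 and SLC9C1 held sites in Hoolock alone.

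**Figure D5:**
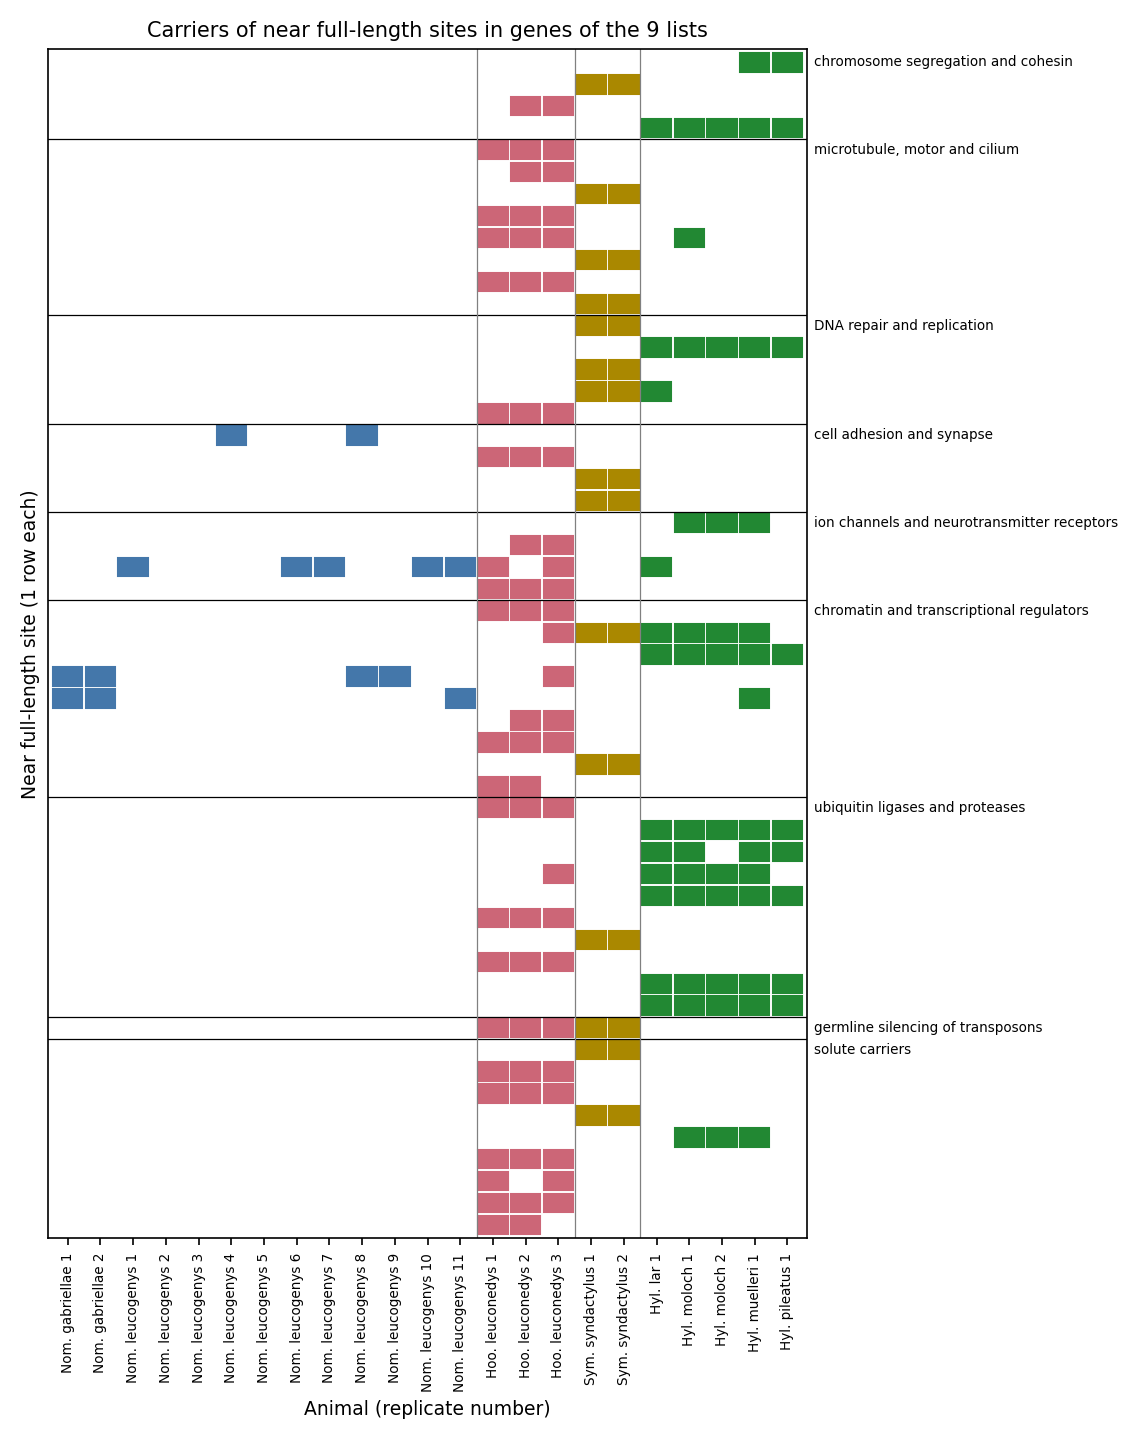
Carriers of the 54 near full-length sites in genes of the 9 lists; each row is a site, grouped by list, each column an animal, and a filled cell marks a carried insertion (blue Nomascus, red Hoolock, yellow Symphalangus, green Hylobates; an empty cell is not carried or missing). Of the 54 sites, 46 have all their carriers in 1 genus, and 4 have a Nomascus carrier.

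Near full-length intronic sites were found on all 26 chromosomes of the table. Chromosome 2 held 33, chromosomes 17 and 1a held 32 each and chromosome 10 held 31, while chromosome 25 held 4. As a share of a chromosome's intronic single-base sites they ranged from 13.6% on chromosome 20 to 34.0% on chromosome 17. Only 4 lay within 1000 bases of another listed site. The numbers were not set against chromosome or intron length, because no source used here names the genome build.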

How the data were processed

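Per the labels' protocols, Illumina libraries were made from sheared blood DNA of 23 gibbons. The submitters' processing notes name BWA without a version. Not given in the sources used here are the genome build, insertion caller, filters and annotation. From this the authors deposited 1 table with a presence call per site and animal (1 carried, 0 not carried, NA missing) and, for each site, coordinates, element length, consensus start and end, location class, orientation and gene name, per the file headers. No depth, batch or genotype is given.

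All 23 columns of calls were matched to animals by label. Positions are the deposited start plus 1, on the unstated build. Missing calls were taken as not carried. Animals were grouped by genus; replicate numbers follow the order of deposit and pair nothing. Sites per animal were compared with exact two-sided permutation tests, the p being the share of assignments with an absolute difference at least as large. Site classes were compared with Fisher's exact test, orientation with an exact binomial test, and carriers with Fisher's exact test on all 5490 sites. P-values were adjusted within each family by the Benjamini-Hochberg method, with 0.05 as the threshold. Shares have Clopper-Pearson 95% intervals. The site test was tested on simulated data. Python 3.11.15, NumPy 2.4.6, pandas 2.3.3, SciPy 1.17.1 and Matplotlib 3.10.9 were used.

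Named genes were those with several near full-length sites (10 by number, then alphabet), up to 6 per genus with a site in all its animals and no other, those with at least 20 carriers, up to 6 per gene list, and those at the length limit; any other gene is named as stated beside it. A few genes that the rule takes are not reported here. The RefSeq table served for gene names and types alone. A name that the table holds as a date is left out. The sites, the lists and the tests were chosen with earlier results of these data known. Alternatives were other length limits, protein-coding genes alone, other handling of missing calls, leaving out each animal and, added after seeing the data, 1 consensus end at a time and a doubled permutation tail.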

Additional observations from a re-analysis of the deposited data

How the results depend on the processing

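Of 709 recomputed values, 529 came from leaving out 1 animal. In all, 677 kept both their direction and their side of the threshold or, for counts, stayed within a wide margin. Within that margin the 73 sites more frequent in Hylobates counted as kept at 55 to 76. With a length limit of 1700 the sites less frequent in Nomascus numbered 23 of 543, and with a stricter limit, which left 350 sites, those more frequent in Hylobates numbered 46. The difference in sense share from truncated sites, 0.597 points, was -3.15 with the stricter limit, -0.836 with truncated sites from 1000 bases and -0.403 in protein-coding genes alone, and none of these passed. With single-base sites ending at 1839 alone, it was -4.51, the difference from all interval sites, not restricted by end, was 0.0619 (Fisher's exact test, adjusted p = 1), and the single-genus share differed from that of sites between genes by -2.11 points. Restricted to sites ending at 1838, the sense share was 54.7%, its difference from truncated sites 8.88 points (Fisher's exact test, adjusted p = 0.0404) and from short sites 7.14 points (adjusted p = 0.0659). With the smaller permutation tail doubled, Hoolock against Hylobates (146 sites, 11.6 points) had an exact adjusted p of 0.0536. With 1 animal left out, Nomascus minus Symphalangus was -123 to -120 sites and -13.1 to -12.5 points, and Hoolock minus Hylobates 139 to 155 sites and 11.4 to 12.1 points. Sites less frequent in Nomascus were then 14 to 52, sites more frequent in Symphalangus 0 to 109, and the single-genus difference from sites between genes -0.681 to 1.28 points. Some of these values rest on fewer animals, or on fewer sites where 1 end was taken, and the cause of the changes was not tested. No paired analysis was possible because the replicate numbers come from the order of deposit and pair nothing. With 2 or 3 animals in a genus the exact tests have a high smallest p, and with no depth per animal a missed insertion cannot be told apart from an absent one.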

Other observations

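Some widely shared near full-length sites described as a group above lay in genes with known functions, and these were chosen after their values were seen. OPA1, a gene of mitochondrial fusion, held a sense site in 3 Nomascus, 1 Hoolock, both Symphalangus and all 5 Hylobates (chromosome 11, position 118692108). CNOT4, of the CCR4-NOT complex of messenger RNA decay, held a sense site in 6 Nomascus, 2 Hoolock, 1 Symphalangus and 2 Hylobates (chromosome 13, position 86740539). TP63, a transcription factor of epithelia, held an antisense site in 4 Nomascus and in 1 animal of each other genus, and RNASEH2A, a subunit of the nuclease that removes RNA from DNA, a sense site in 3 Nomascus, 2 Hoolock, 1 Symphalangus and 1 Hylobates.

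The sites of Nomascus alone, beside the 3 more frequent there, included antisense sites in PRKAR2A, a regulatory subunit of protein kinase A (7 N. leucogenys), and in NSMCE2, of the SMC5/6 complex (4 N. leucogenys). At the NSMCE2 site 3 calls were missing and were taken as not carried. HOMER1, a postsynaptic scaffold gene, held a sense site in 3 N. leucogenys. Sites in N. gabriellae alone, in both of its animals, lay in CDK19, GINS1, TBCE, WWTR1 and AC019209.2.

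Within Nomascus, the share of sense sites among those an animal carried was 42.3 to 64.7% (median 55.6%). It was 38.2 to 40.6% in Hoolock, 38.2 and 41.1% in Symphalangus, and 40.0 to 47.3% in Hylobates. These shares were not tested, and the animals of a genus carry many of the same sites.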
